A study of Mus musculus with 4 samples.

Results

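The nuclear genes for the subunits of oxidative phosphorylation were examined in sorted mouse mammary tumor cells with and without targeted radiation. Members were the protein-coding genes off the mitochondrial chromosome whose symbols begin with Nduf followed by a, b, c, s or v and a digit, Uqcr, Cox4 to Cox8 or Atp5, or are Sdha, Sdhb, Sdhc or Sdhd, with Ndufa4l2 left out. The rule used symbols alone and no measured value, and it gave 84 of the 54532 genes in the deposited table, on 19 chromosomes. They comprised 35 complex I genes, 4 complex II genes, 8 complex III genes, 19 complex IV genes and 18 complex V genes. The cells are labelled MMTV-PyMT, a mouse model in which the mouse mammary tumor virus promoter drives the polyoma middle T antigen in mammary epithelium, on the C57BL/6 strain. The series' design text describes MFP injection of PyMT cells positive for Dll1, a Notch ligand read through an mCherry reporter. The 2 unirradiated libraries came from tumors given no radiation, and the 2 irradiated libraries from tumors given targeted radiation, with 30 days in the sample titles and day 30 in the design text. The sources used here give neither the radiation dose nor the age of the mice. Digested tumors were sorted first by CD45, CD31 and TER119 antibodies and then for mCherry, so all 4 libraries are of mCherry-positive cells. The title codes separate the libraries in the same way as the treatment, and any batch those codes stand for cannot be told apart from radiation. Whether a group's 2 libraries came from 2 mice is not stated in the labels, so the p-values reflect only how these libraries varied, and that variation may be technical.

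Oxidative phosphorylation makes most of the ATP of a resting cell. Complex I takes electrons from NADH and complex II from succinate, both pass them through ubiquinone to complex III, cytochrome c carries them on to complex IV, and complex IV gives them to oxygen. Complexes I, III and IV pump protons out of the matrix, and complex V, the ATP synthase, lets them return and makes ATP. Complexes I, III, IV and V are built from subunits of both genomes, with the mitochondrial DNA supplying a few core proteins and the nucleus all others, whereas complex II is wholly nuclear. Nuclear subunit genes are transcribed in nearly all cells, with the factors NRF1, GABP (an ETS factor) and YY1 known to bind many of their promoters, and mammary tumor cells are known to use both glycolysis and respiration.

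Summed counts per library lay between 16811888 and 20817997. Marker genes of other cell types stood higher in the irradiated libraries, most of all in irradiated 2. Beside the counts that follow, 20.3% of all tested genes were higher in each irradiated library than in either unirradiated one, and 20.0% lower. Of 13 macrophage genes 12 were higher in each irradiated library than in either unirradiated one, the median gene standing 2.46 above the unirradiated mean on the log2 scale in irradiated 1 and 5.75 above it in irradiated 2, with summed levels of 359 and 325 CPM (counts scaled to the size of each library) in unirradiated 1 and 2 and of 369 and 1077 CPM in irradiated 1 and 2, and Fcgr1, Itgam and Ms4a7 were at 0 in unirradiated 2 only. The same held for 9 of 10 endothelial genes (40.9 and 38.6 against 67.1 and 1073 CPM, none at 0), for all 8 tested of 12 lymphocyte genes (5.97 and 5.66 against 22.1 and 120.4 CPM, with Ncr1 at 0 in both unirradiated libraries and Cd3d at 0 in unirradiated 2 and irradiated 1), and for 6 of 10 fibroblast and pericyte genes (749 and 756 against 939.8 and 6051 CPM, none at 0). The 10 luminal epithelial genes, which check the labelled cells, summed to 11666 and 11196 CPM in the unirradiated libraries and 12035 and 9838 CPM in the irradiated ones, with none at 0. Of the 10 genes 2 lay above and 4 below both unirradiated libraries in each irradiated one. Elf5 had 273 and 277 against 217 and 225 CPM, and Krt7 had 219 and 212 against 292 and 257 CPM. Skeletal muscle genes, of which 5 of 11 were tested and 2 lay above, summed to 12.8 and 8.79 against 13.7 and 21.9 CPM, with Myh4 and Tnnt3 at 0 in both unirradiated libraries, Myh1 at 0 in unirradiated 1 and Tnnc2 at 0 in irradiated 2. Adipocyte genes, of which 3 of 8 were tested and none lay above, summed to 6.16 and 7.61 against 6.05 and 86.1 CPM, with Adipoq, Cidec and Plin1 at 0 in unirradiated 2 and irradiated 1, and Lep at 0 in both irradiated libraries. The adipocyte sum in irradiated 2 was mostly Fabp4, which had 3.22 and 4.25 against 3.78 and 81.8 CPM. Cidea had 1.35 and 1.30 against 0.908 and 0.906 CPM. The part of these cell types in the results on the subunit genes was not tested.

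No nuclear subunit gene passed the test between irradiated and unirradiated libraries, and the subunit genes split the irradiated libraries instead. Of the 84 members 80 passed the filter on low counts. By edgeR's quasi-likelihood test, with p-values adjusted by Benjamini-Hochberg over the 15993 genes tested, 0 of the 80 were called higher and 0 lower, as was 0% of all tested genes in either direction. At an unadjusted p under 0.05 there were 0 of the 80, beside 9.25% of all tested genes, and limma-voom also called 0 of the 80 and of all genes. DESeq2 called 0 of the 80 in either direction, beside 2.66% of all tested genes called higher and 0.331% called lower. The median log2 fold change of the 80 was -0.092 and that of all tested genes 0.0040, with the members' quartiles at -0.16 and -0.012. These are bulk samples, in which fewer cells of a type and less RNA per cell cannot be told apart.

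The subunit genes were lowest in irradiated 1. Relative to the mean log2 CPM of the unirradiated libraries, the median member stood at 0.087 in unirradiated 1, -0.087 in unirradiated 2, -0.29 in irradiated 1 and 0.10 in irradiated 2. Irradiated 1 was the lowest of the 4 libraries for 68 of the 80 genes (85%), against 34.2% of all tested genes. Irradiated 2 exceeded irradiated 1 for 77 of the 80, by a median of 0.41 on the log2 scale, against 54.5% of all tested genes. The unirradiated libraries also differed in 1 direction, with unirradiated 2 below unirradiated 1 for 74 of the 80, by a median of 0.17 on the log2 scale, against 50.3% of all tested genes. The highest library was irradiated 2 for 42 of the 80 and unirradiated 1 for 35. The groups therefore overlapped for most members: each irradiated library exceeded each unirradiated one for 1 of 80 (Cox6b2), beside 20.3% of all tested genes, and lay under each for 6 of 80 (Sdhd, Cox7a1, Cox7c, Cox8b, Atp5f1 and Atp5s), beside 20.0%.

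**Figure D1:**
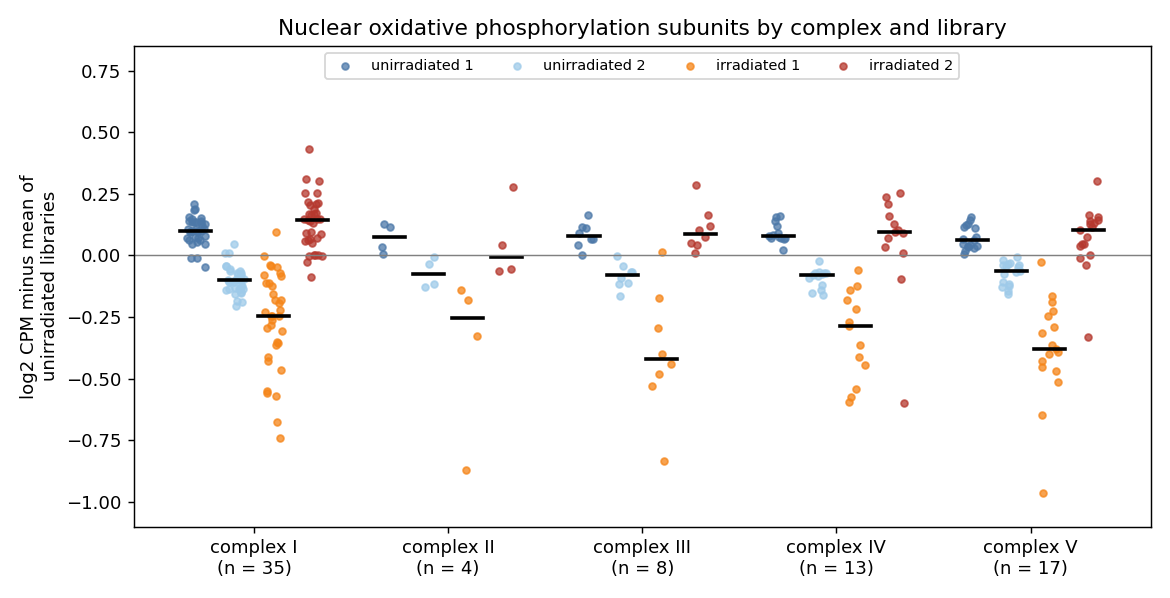
Log2 CPM of nuclear subunit genes in each library, with the unirradiated mean subtracted, by complex; each point is 1 gene, black lines are medians over the genes drawn, and the 77 members with a mean of at least 1 CPM are shown (Cox4i2, Cox6b2 and Cox8b are not drawn). Irradiated 1 has the lowest median in every complex, whereas irradiated 2 lies close to the unirradiated libraries.

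As a share of all counts, the 84 members took 0.714% in unirradiated 1, 0.655% in unirradiated 2, 0.553% in irradiated 1 and 0.717% in irradiated 2. The 95% Wilson intervals, which cover counting error only, were 0.711 to 0.718%, 0.651 to 0.659%, 0.549 to 0.556% and 0.714 to 0.721%. Irradiated 1 was the lowest, and irradiated 2 and unirradiated 1 stood next to each other at the top.

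Because the irradiated libraries differed, each was also compared alone with the unirradiated pair, under the assumption that a lone library varies like that pair. Irradiated 1 alone had 40 of 80 members called lower and 0 higher, beside 13.9% of all genes tested in that fit called lower and 11.9% called higher. The 40 comprised 11 of 35 complex I genes, 2 of 4 complex II genes, 6 of 8 complex III genes, 8 of 16 complex IV genes and 13 of 17 complex V genes. Irradiated 2 alone had 3 members called higher (Ndufa1, Cox4i2 and Atp5e) and 0 lower, beside 15.9% called higher and 7.95% called lower over all genes. The median of the members moved from -0.32 with irradiated 1 alone to 0.086 with irradiated 2 alone, and was 0.0033 without unirradiated 1 and -0.20 without unirradiated 2. With irradiated 1 alone 69 members lay below both unirradiated libraries, beside 42.9% of all genes tested in that fit, and 1 above, beside 41.0%. With irradiated 2 alone 8 lay below, beside 39.8%, and 34 above, beside 40.3%. Without unirradiated 1, both irradiated libraries lay below the other unirradiated one for 8 members and above it for 10, beside 28.8% in each direction. Without unirradiated 2 the numbers were 42 below, beside 29.8%, and 1 above, beside 29.7%. Each fit with 1 irradiated library compares that library with the unirradiated pair and not the conditions.

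Promoters are shown because irradiated 1 was the lowest library for most members. The commonest order, irradiated 2 highest, then unirradiated 1, unirradiated 2 and irradiated 1, held for 33 of the 80, and for another 26 unirradiated 1 stood above irradiated 2 with the others in the same places. RefSeq promoter windows on GRCm38.p6, each from 250 bases before to 50 bases after a transcription start, were matched by symbol for 68 members with 73 windows. The NRF1 motif, 10 bases with the fifth from the end left free, was found on either strand in 24.7% of these windows and in 4.6% of all 32851 windows in the table. CCGGAAG, bound by ETS factors such as GABP, was found on either strand in 21.9% against 8.86%, and the YY1 motif, whose letters appear in capitals in the Ndufs6 and Atp5j windows below, in 6.85% against 0.852%. At least 1 of the 3 motifs was present in 32 of the 68 members, and 6 members (Atp5h, Atp5j, Atp5k, Cox6a1, Ndufs6 and Sdhd) held 2 kinds. Of these, 4 are printed from 4 complexes that together show all 3 motifs, Ndufs6 and Atp5j being chosen for their motifs after their values were seen. All 4 lie on the minus strand and read 5′ to 3′ in the direction of the gene, with motif matches on either strand in capitals, at chr13:73328433-73328732 (Ndufs6), chr9:50603800-50604099 (Sdhd), chr5:115348909-115349208 (Cox6a1) and chr16:84834927-84835226 (Atp5j).
Ndufs6: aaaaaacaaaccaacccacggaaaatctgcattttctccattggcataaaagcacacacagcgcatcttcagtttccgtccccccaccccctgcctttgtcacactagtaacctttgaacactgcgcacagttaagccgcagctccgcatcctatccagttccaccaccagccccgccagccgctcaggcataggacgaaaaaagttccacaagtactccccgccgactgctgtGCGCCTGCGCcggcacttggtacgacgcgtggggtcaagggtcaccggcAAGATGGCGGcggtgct
Sdhd: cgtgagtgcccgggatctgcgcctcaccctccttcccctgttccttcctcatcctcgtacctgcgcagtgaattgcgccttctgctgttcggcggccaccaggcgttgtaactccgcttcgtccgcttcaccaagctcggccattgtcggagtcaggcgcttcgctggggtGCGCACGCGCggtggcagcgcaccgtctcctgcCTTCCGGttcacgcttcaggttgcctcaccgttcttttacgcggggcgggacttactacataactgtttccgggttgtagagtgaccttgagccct
Cox6a1: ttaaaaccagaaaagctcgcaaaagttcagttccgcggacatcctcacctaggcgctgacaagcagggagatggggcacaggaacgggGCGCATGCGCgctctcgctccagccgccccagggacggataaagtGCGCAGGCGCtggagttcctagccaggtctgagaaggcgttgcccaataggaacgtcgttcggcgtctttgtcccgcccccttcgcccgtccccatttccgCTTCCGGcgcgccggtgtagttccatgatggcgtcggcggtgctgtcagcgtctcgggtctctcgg
Atp5j: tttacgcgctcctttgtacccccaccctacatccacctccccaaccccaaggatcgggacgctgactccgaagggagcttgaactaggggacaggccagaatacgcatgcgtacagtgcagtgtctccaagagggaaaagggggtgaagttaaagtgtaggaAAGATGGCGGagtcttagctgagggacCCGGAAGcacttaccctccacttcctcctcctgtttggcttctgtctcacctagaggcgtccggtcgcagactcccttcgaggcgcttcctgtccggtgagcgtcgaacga

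The Ndufs6 window holds 1 NRF1 and 1 YY1 match, the Sdhd window 1 NRF1 and 1 ETS match, the Cox6a1 window 2 NRF1 matches and 1 ETS match, and the Atp5j window 1 ETS and 1 YY1 match. A match is a description of the letters and not a measured site. Among tested members with a window, the median log2 difference of irradiated 1 from the unirradiated mean was -0.29 for the 17 with the NRF1 motif and -0.33 for the 50 without it. For the ETS motif it was -0.36 in 16 members with it and -0.29 in 51 without it, and for YY1 it was -0.35 in 5 and -0.30 in 62. In irradiated 2 the medians were 0.15 with and 0.093 without the NRF1 motif, 0.14 and 0.094 for ETS, and 0.088 and 0.10 for YY1. None of these differences was tested. The 4 genes printed differed widely in irradiated 1, from -0.87 for Sdhd through -0.35 for Ndufs6 and -0.14 for Cox6a1 to -0.028 for Atp5j.

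Complex I genes had the smallest median change of the 5 complexes over all 4 libraries. Over the 35 genes, all tested, the median log2 fold change was -0.058, the range ran from -0.22 to 0.17, and 0 genes had groups that did not overlap. The median was -0.26 with irradiated 1 alone, 0.12 with irradiated 2 alone and 0.027 without unirradiated 1. With irradiated 2 alone it was the highest median of the 5 complexes, and differences between complexes were not tested. Irradiated 1 was lowest for 28 of the 35 and irradiated 2 highest for 18. The 7 core subunits, which carry the flavin and the iron-sulfur clusters or bind next to them, had a median of -0.0095, and the 28 other subunits, which surround the core, had a median of -0.088. In irradiated 1 the core genes stood at a median of -0.12 relative to the unirradiated mean and the other genes at -0.25.

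Ndufv1, the subunit that binds NADH and the flavin, had 89.4 and 81.0 CPM in unirradiated 1 and 2 and 75.1 and 94.2 CPM in irradiated 1 and 2. Ndufs1, the largest core subunit with several iron-sulfur clusters, had 53.0 and 56.4 against 50.6 and 54.5 CPM. Ndufs7, which carries the last iron-sulfur cluster before ubiquinone, had 55.4 and 47.8 against 54.9 and 61.3 CPM. All 3 overlapped between the groups, and Ndufs7 had the highest fold change of complex I (log2 0.17 ± 0.13 SE, n = 2 per group, adjusted p = 0.766). Of the accessory subunits, Ndufb11 had 108.9 and 94.9 against 76.3 and 101.8 CPM, Ndufa13 had 76.2 and 71.6 against 65.1 and 72.5 CPM, and Ndufc2 had 62.5 and 52.5 against 54.2 and 59.8 CPM. Ndufb11 and Ndufa13 share the complex I pattern of a low irradiated 1, but Ndufc2 was lowest in unirradiated 2, as was Ndufa2 (47.3 and 36.5 against 41.4 and 45.9 CPM). The largest gap between the irradiated libraries within complex I was in Ndufb4, an accessory subunit of the membrane arm, with 19.1 and 17.5 CPM in the unirradiated libraries and 10.9 and 22.6 CPM in irradiated 1 and 2 (chosen after its values were seen).

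Some complex I genes share exon bases with a neighbour, and the library kit did not keep strand. In the GENCODE M21 annotation 29.98% of the exon bases of Ndufa13 overlap Tssk6 on the opposite strand, 12.89% of those of Ndufb11 overlap Rbm10, 11.54% of those of Ndufa2 overlap Tmco6 and 39.0% of those of Ndufb6 overlap Smim27. Reads from such bases cannot be assigned to 1 of the genes, so their values are uncertain to that extent.

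Complex II, succinate dehydrogenase, also works in the citric acid cycle and has 4 subunits, all nuclear. Its median log2 fold change was -0.13 (-0.27 with irradiated 1 alone and -0.022 with irradiated 2 alone), and irradiated 1 was the lowest library for all 4 genes. Sdhc, an anchor subunit that binds ubiquinone and heme (ENSMUSG00000058076, chr1:171127165-171150603), had 95.2 and 79.9 CPM in the unirradiated libraries and 69.4 and 83.4 CPM in the irradiated ones. Irradiated 2 lay between the unirradiated libraries, so the groups overlapped, and the fold change was -0.20 ± 0.15 on the log2 scale (SE, n = 2 per group, adjusted p = 0.768). Against irradiated 1 alone Sdhc was called lower (log2 -0.35, adjusted p = 0.0056), and against irradiated 2 alone it was not (log2 -0.087, adjusted p = 0.622).

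Sdhd, the other anchor subunit (chr9:50596357-50603812), had 71.0 and 70.2 CPM in the unirradiated libraries and 38.5 and 68.0 CPM in the irradiated ones. Both irradiated values lay below both unirradiated ones, but by very unequal amounts, and the log2 fold change of -0.41 ± 0.27 (SE) did not pass the test (adjusted p = 0.738). With irradiated 1 alone the log2 fold change was -0.89 and with irradiated 2 alone -0.070. Sdha, the flavoprotein that oxidizes succinate, had 191 and 182 against 165 and 192 CPM. Sdhb, the iron-sulfur subunit, had 59.3 and 50.6 against 49.7 and 66.4 CPM. Irradiated 2 was level with the higher unirradiated library for Sdha and above both for Sdhb.

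Complex III genes had the lowest median of the 5 complexes in irradiated 1, at -0.42 relative to the unirradiated mean, beside 0.089 in irradiated 2. The median log2 fold change over the 8 genes was -0.15, with 0 called, and it was -0.44 with irradiated 1 alone and 0.070 with irradiated 2 alone. Uqcrfs1, the Rieske iron-sulfur protein that passes electrons to cytochrome c1, had 89.9 and 81.7 against 64.9 and 88.4 CPM. Uqcrc2, a core protein of the matrix side, had 108.7 and 108.2 against 75.1 and 112.2 CPM. Both were low in irradiated 1 and within or just past the unirradiated range in irradiated 2, whereas Uqcrc1, the partner core protein (chosen after its values were seen), had 141 and 128 against 136 and 151 CPM and was not lowest in irradiated 1.

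Uqcr10, a small subunit of the membrane part (chr11:4701973-4704342), had the widest gap, with 51.4 and 48.5 CPM in the unirradiated libraries and 28.0 and 52.6 CPM in the irradiated ones (log2 fold change -0.31 ± 0.30 SE, adjusted p = 0.833). Uqcrh, the acidic hinge protein that helps cytochrome c1 meet cytochrome c, had 78.1 and 67.0 against 53.3 and 78.5 CPM, and Uqcr11 had 66.6 and 56.7 against 44.0 and 66.0 CPM. Uqcrb, a subunit next to the ubiquinone site, varied less, with 62.6 and 55.1 against 52.1 and 59.1 CPM. Of the exon bases of Uqcrc2, 19.75% overlap Pdzd9 on the opposite strand. Cyc1, the cytochrome c1 gene, falls outside the symbol rule and had 98.1 and 94.4 against 93.3 and 105.7 CPM.

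Complex IV, cytochrome c oxidase, has nuclear subunits that surround the mitochondrially encoded catalytic core, several of which exist as a widely used form and a tissue form. Of its 19 genes 16 were tested, with a median log2 fold change of -0.13 and 0 called, and the median was -0.35 with irradiated 1 alone, 0.079 with irradiated 2 alone, and 0.0033 without unirradiated 1. Ndufa4 was counted here because its protein, named for complex I, is known to purify with cytochrome c oxidase. Ndufa4 (ENSMUSG00000029632, chr6:11900292-11907497) had 114 and 103 CPM in the unirradiated libraries and 72.8 and 111 CPM in the irradiated ones, a log2 fold change of -0.24 ± 0.22 (SE, n = 2 per group, adjusted p = 0.818). Irradiated 2 lay between the unirradiated values. With irradiated 1 alone Ndufa4 was called lower (log2 -0.59, adjusted p = 4.3e-07), and with irradiated 2 alone the value was 0.015 (adjusted p = 0.942).

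Irradiated 1 was the lowest library for 13 of the 16 tested complex IV genes. Cox4i1, one of the first nuclear subunits to join the core, had 235 and 213 against 193 and 259 CPM. Cox6a1 had 197 and 179 against 171 and 210.0 CPM. Cox8a, a small single-span subunit, had 168 and 150.2 against 123 and 160.3 CPM. In these 3 genes irradiated 1 was the lowest library, and in the first pair irradiated 2 was the highest. Cox6b1, which faces cytochrome c, had 111.3 and 91.5 against 75.9 and 107.9 CPM, Cox7b had 74.1 and 65.3 against 47.8 and 74.7 CPM, and Cox7c had 141 and 128 against 111 and 126 CPM. Of these 6 genes, Cox7c was the only one whose irradiated values both lay below both unirradiated ones (log2 fold change -0.18 ± 0.12 SE, adjusted p = 0.731).

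The paralogs of subunit 7a did not move alike. Cox7a2, the widely used form, had 60.7 and 51.5 against 41.1 and 59.6 CPM. Cox7a2l, another paralog, had 127 and 103 against 75.5 and 136 CPM, so it was the lowest in irradiated 1 and the highest in irradiated 2. Cox7a1, the heart and skeletal muscle form (chr7:30184144-30186078), had 6.21 and 5.54 against 4.79 and 3.84 CPM and was lower in irradiated 2 than in irradiated 1, the reverse of its paralogs (log2 fold change -0.44 ± 0.30 SE, adjusted p = 0.739). The differences between paralogs were not tested.

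The other tissue forms were near the limit of detection. Cox4i2, the lung form known to respond to low oxygen (chr2:152754173-152765037), had 0.337 and 0.531 CPM in the unirradiated libraries, 0 in irradiated 1 and 1.97 CPM in irradiated 2. Its log2 fold change of 1.18 ± 1.59 (SE, adjusted p = 0.883) rests on irradiated 2 alone and was -1.03 by limma-voom. Cox6b2, a testis form, had 0.433 and 0.590 against 0.807 and 0.800 CPM, and Cox8b, the heart and muscle form, had 0.866 and 0.885 against 0.202 and 0.746 CPM. Neither passed the test (adjusted p = 0.803 and 0.804). The muscle form Cox6a2 had 4 counts in irradiated 2 and 0 elsewhere, the testis form Cox7b2 had 3 counts in unirradiated 2 and 0 elsewhere, and the testis form Cox8c had 0 counts in every library. These 3 and a second row named Atp5o (ENSMUSG00000116933), which had 0 counts and whose exon bases all overlap Donson, were the 4 members below the filter.

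Complex V genes were lowest in irradiated 1 for 16 of the 17 tested, the highest share after complex II. Their median log2 fold change was -0.12, with 0 called and a range from -0.62 to -0.014. The median was -0.41 with irradiated 1 alone and 0.089 with irradiated 2 alone. The 5 genes of the F1 head had a median of -0.097, the 3 c-ring genes -0.12, the 4 stalk genes tested -0.11 and the 4 small membrane subunits -0.12. Unirradiated 1 was the highest library for all 4 stalk genes and for 0 of the 3 c-ring genes, and the stalk genes stood at 0.025 in irradiated 2, beside 0.12 for the head, 0.10 for the c ring and 0.13 for the small membrane subunits. These differences between groups of few genes were not tested.

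Atp5b, the catalytic beta subunit, had 804 and 757 CPM in the unirradiated libraries and 627 and 801 CPM in the irradiated ones. Atp5a1, the alpha subunit that alternates with it in the head, had 637 and 621 against 531 and 624 CPM. In both genes irradiated 2 lay within the unirradiated range and irradiated 1 below it, with log2 fold changes of -0.13 ± 0.17 and -0.12 ± 0.15 (SE, adjusted p = 0.882 and 0.866). The 3 genes Atp5g1, Atp5g2 and Atp5g3 are known to encode the same mature c subunit behind different import sequences. Atp5g3 had 197 and 186 against 168 and 198 CPM, Atp5g2 had 98.4 and 97.5 against 71.6 and 105.2 CPM, and Atp5g1 had 90.6 and 76.0 against 62.9 and 90.8 CPM. All 3 were lowest in irradiated 1 and highest in irradiated 2, but for Atp5g1 and Atp5g3 irradiated 2 was nearly level with unirradiated 1.

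Atp5f1, the peripheral stalk subunit b, had 161 and 154 against 100.5 and 153 CPM, and Atp5l, subunit g of the membrane part, had 42.8 and 38.6 against 28.4 and 42.8 CPM. Atp5f1 lay below in both irradiated libraries, almost wholly through irradiated 1. Atp5s (chr12:69724950-69744660), a gene named as a coupling factor of the enzyme, had the smallest unadjusted p of all 80 members, with 10.1 and 9.44 CPM in the unirradiated libraries and 4.94 and 7.73 CPM in the irradiated ones. Its log2 fold change of -0.62 ± 0.31 (SE) did not pass edgeR's test (adjusted p = 0.621, from an unadjusted value of 0.099). Atp5j, coupling factor 6 of the stalk, was the flattest of the complex, with 105.4 and 96.8 against 99.1 and 101.2 CPM, and 12.68% of its exon bases overlap Gabpa, with which it is known to share a promoter. Of the exon bases of the expressed Atp5o row 47.92% overlap Gm15976 on the opposite strand.

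Levels between genes were compared per length, as RPKM (CPM divided by length in kilobases) averaged over all 4 libraries. With the deposited gene length, which counts every exon base, the highest members were Cox8a at 276 RPKM, Cox6a1 at 269, Atp5a1 at 192 and Atp5b at 176. With the length of the shortest principal transcript, a choice made after seeing the data, the highest were Atp5b at 390.0 RPKM, Cox6a1 at 331, Cox4i1 at 302 and Cox8a at 274. On either length complex I genes were the lowest of the complexes with many genes, with medians of 27.5 and 46.4 RPKM, beside 73.2 and 164 RPKM for the 11 widely used complex IV genes and 48.8 and 129 RPKM for 16 complex V genes. The order of single genes changed with the length: Ndufb2 had 1.41 RPKM on the deposited length and 17.5 on the principal transcript, Atp5l 5.92 and 70.1, and Cox6c 23.9 and 169.5. Complex II was the most even, from 25.2 RPKM for Sdhc to 50.3 for Sdhd on the deposited length. For neighbours in the order such as Cox8a (309, 276, 227 and 294 RPKM by library) and Cox6a1 (281, 255, 243 and 299 RPKM), the libraries overlapped, so their order is not beyond the spread.

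**Figure D2:**
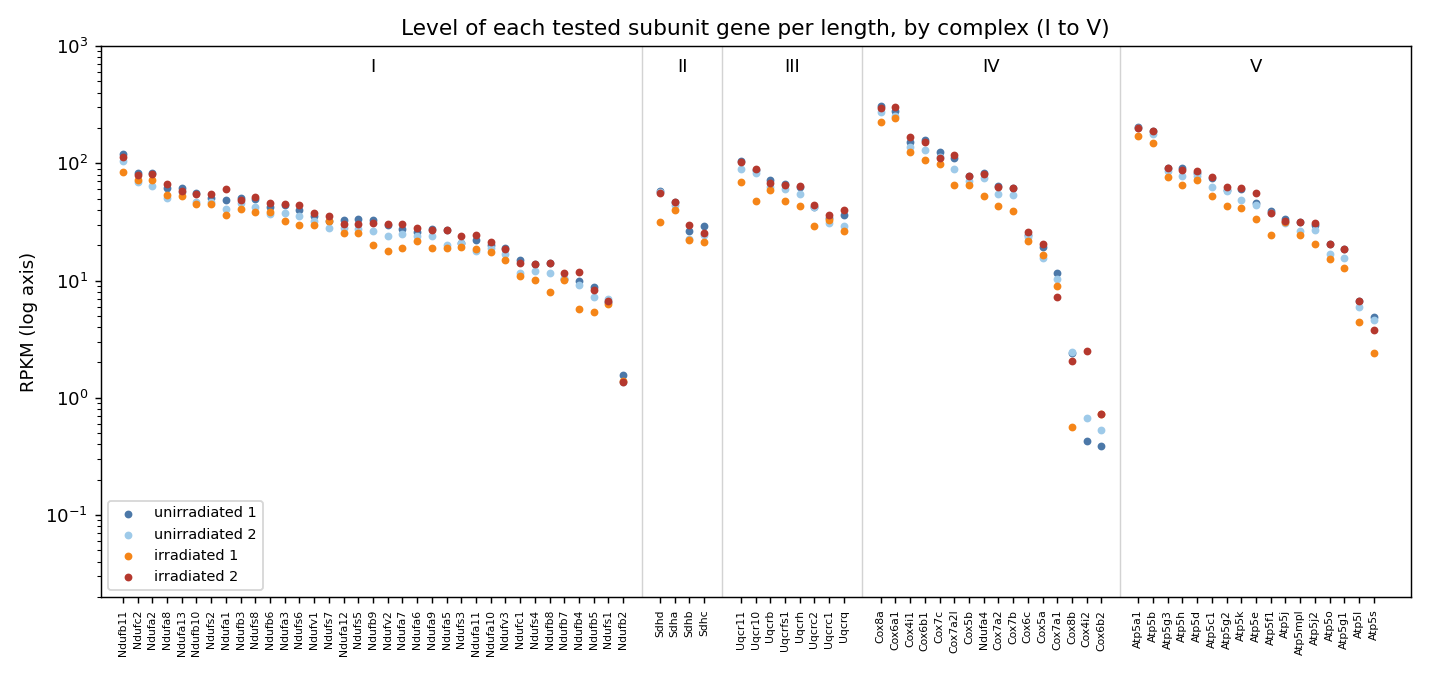
Level of each tested member in each library in RPKM on the deposited gene length (log axis), ordered within complexes I to V by their mean. Cox8a and Cox6a1 stand highest, Cox6b2, Cox4i2 and Ndufb2 lowest, and the value of 0 for Cox4i2 in irradiated 1 cannot be drawn on this axis.

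The mitochondrially encoded subunits of the same complexes lay higher in both irradiated libraries than in both unirradiated ones, for 13 of 13 genes, beside 20.3% of all tested genes. Their median relative to the unirradiated mean was 0.50 in irradiated 1 and 1.49 in irradiated 2. The fitted log2 fold changes ran from 0.74 to 1.38, 10 of the 13 had an unadjusted p under 0.05 (9.25% of all genes did), and 0 passed after adjustment in edgeR. mt-Co1, the catalytic subunit of complex IV, had 5766 and 5552 CPM in the unirradiated libraries and 8098 and 13704 CPM in the irradiated ones (log2 fold change 0.95 ± 0.31 SE, adjusted p = 0.502). mt-Co2 had 24.5 and 24.4 against 39.8 and 87.5 CPM, and mt-Atp6, the proton channel subunit of complex V, had 33.2 and 29.1 against 50.7 and 87.8 CPM. By DESeq2 both of these passed, with adjusted p = 0.0123 and 0.0086. The median log2 fold change of the 13 was 0.49 with irradiated 1 alone and 1.49 with irradiated 2 alone. mt-Co2 and mt-Atp6 also passed in edgeR without the filter on low counts (adjusted p = 9.0e-15 and 6.4e-11). That fit called 1338 genes higher over all genes, where the main fit called 0. The log2 fold changes of mt-Co2 and mt-Atp6 were 0.69 and 0.68 with irradiated 1 alone and 1.82 and 1.48 with irradiated 2 alone. Levels of mitochondrial genes that share sequence with nuclear copies of mitochondrial DNA are uncertain. The counting of shared reads is not given in the sources used here. Unirradiated means were very unequal, at 5659 CPM for mt-Co1, 24.4 for mt-Co2, 23.6 for mt-Co3, 31.2 for mt-Atp6 and 1.55 for mt-Atp8. The cause was not tested.

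Relative to the nuclear subunits, the mitochondrially encoded ones stood higher in both irradiated libraries. The ratio of summed mitochondrial to summed nuclear CPM over complexes I, III, IV and V was 1.85 in unirradiated 1, 1.94 in unirradiated 2, 3.28 in irradiated 1 and 4.61 in irradiated 2. Both irradiated libraries were above both unirradiated ones, and the unirradiated ones were close to each other. An exact permutation test of the 2 against 2 ratios gave p = 0.33, two-sided, the smallest it can give. The ratio was 2.49, 2.69, 4.29 and 6.23 in complex I and 3.50, 3.66, 6.17 and 9.72 in complex III. It was 3.91, 4.24, 7.21 and 9.17 in complex IV and 0.0120, 0.0116, 0.0235 and 0.0316 in complex V. The mitochondrial sum was mostly mt-Co1 in complex IV, and in complex V it was that of mt-Atp6 and mt-Atp8. The heights of these ratios carry the uncertainty given above for mitochondrial levels. In irradiated 1 the nuclear sum was lower (5234 CPM, beside 6738 and 6109 in the unirradiated libraries) and the mitochondrial sum higher (17152 CPM, beside 12435 and 11872). In irradiated 2 the nuclear sum was 6819 CPM and the mitochondrial sum 31442 CPM. The ratio thus moved in the same direction in libraries whose nuclear subunit levels differed.

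**Figure D3:**
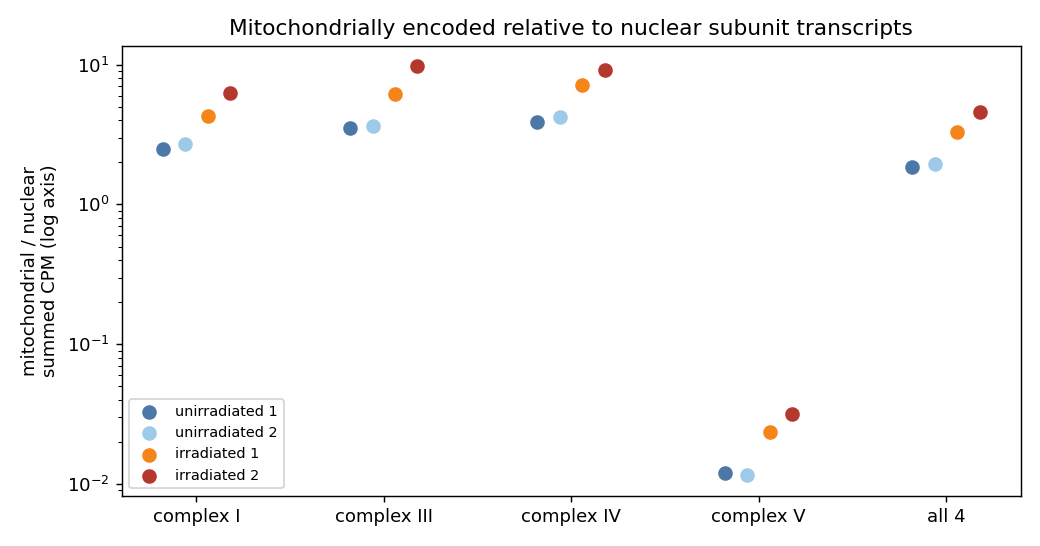
Ratio of summed CPM of mitochondrially encoded subunits to summed CPM of nuclear subunits in each library (log axis), for complexes I, III, IV and V and for these 4 together; complex II has no mitochondrially encoded subunit. In each complex both irradiated libraries lie above both unirradiated ones, from 1.85 and 1.94 to 3.28 and 4.61 for the 4 together.

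Other genes of the pathway were low in irradiated 1 to different degrees, and none of their lists had a gene called over all 4 libraries. The 45 tested assembly factors had a median log2 fold change of -0.16, with 2 above and 12 below in both irradiated libraries (4.44% and 26.7%, beside 20.3% and 20.0% of all tested genes), and stood at -0.35 in irradiated 1 and -0.030 in irradiated 2. Acad9, a complex I assembly factor, had 92.8 and 102.1 against 76.3 and 75.7 CPM (log2 fold change -0.36 ± 0.10 SE, adjusted p = 0.492), so unlike the subunits it was equally low in both irradiated libraries. Ndufaf6, another complex I assembly factor, had 12.4 and 10.4 against 7.21 and 8.74 CPM. The 16 genes of the electron carriers and ubiquinone synthesis had a median of -0.14 with 0 above and 6 below (37.5%), among them Coq6 (21.4 and 18.2 against 14.3 and 16.3 CPM) and Coq2 (65.9 and 59.2 against 54.7 and 53.1 CPM). The 16 citric acid cycle genes had a median of -0.073 with 2 above and 4 below (12.5% and 25%), among them Dld (92.3 and 88.9 against 70.3 and 81.6 CPM) and Suclg2 (70.4 and 75.5 against 61.2 and 67.3 CPM), and stood at -0.096 in irradiated 1. With irradiated 1 alone 19 of the 45 assembly factors, 4 of the 16 carrier and ubiquinone genes and 4 of the 16 citric acid cycle genes were called lower and 0 higher, beside 13.9% and 11.9% of all genes. Among them were Ndufaf6, Coq6, Dld and Suclg2. With irradiated 2 alone the assembly factors had Acad9 called lower and Uqcc2 called higher, beside 7.95% and 15.9% of all genes, and the other lists had 0 called. Acad9 was called lower with either irradiated library alone (log2 -0.37 with irradiated 1 and -0.38 with irradiated 2, adjusted p = 0.0032 and 0.0017).

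The 16 regulators of mitochondrial biogenesis did not follow the subunits, standing at a median of 0.11 in irradiated 1 and of -0.026 in irradiated 2. Of them 3 lay above and 2 below in both irradiated libraries (18.75% and 12.5%, beside 20.3% and 20.0% of all tested genes). Nrf1, whose motif is in the promoters above, had 24.8 and 24.8 against 28.9 and 27.9 CPM (log2 fold change 0.19 ± 0.13 SE, adjusted p = 0.725). Gabpa, the DNA-binding chain of GABP, had 47.6 and 45.5 against 44.7 and 45.8 CPM, and Gabpb1, its partner chain, had 38.6 and 38.6 against 35.6 and 34.7 CPM. Yy1 had 132.3 and 133.6 against 148.3 and 134.0 CPM. Tfam, which packages mitochondrial DNA and takes part in its transcription, had 28.4 and 27.0 against 24.0 and 26.7 CPM. The coactivator Ppargc1a had 2.31 and 2.06 against 2.07 and 1.97 CPM. The irradiated libraries differed more than the group means for Yy1, and more widely for Polg, the mitochondrial DNA polymerase (74.4 and 81.4 against 103.2 and 76.8 CPM), Polrmt, the mitochondrial RNA polymerase (41.6 and 42.1 against 53.7 and 38.3 CPM), and the coactivator Pprc1 (67.4 and 77.5 against 83.6 and 65.5 CPM). None of the 16 passed the test over all 4 libraries. Their median log2 fold change was 0.064 with irradiated 1 alone and -0.041 with irradiated 2 alone.

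Both lists of ribosomal protein genes were likewise lowest in irradiated 1 by median. The cytosolic genes are short and abundant like the subunits, with a median principal transcript of 751 bases and a median level of 499 CPM. The mitochondrial ones had medians of 1280 bases and 26.8 CPM. The tested members had medians of 738.5 bases and 55.7 CPM, and all tested genes of 2844 bases and 18.9 CPM. The 86 tested cytosolic ribosomal protein genes stood at 0.092, -0.092, -0.46 and 0.087 in unirradiated 1 and 2 and irradiated 1 and 2, and irradiated 1 was their lowest library for 94.2%. The 77 tested mitochondrial ribosomal protein genes stood at 0.050, -0.050, -0.30 and 0.029. The cytosolic list had 0 above and 2 below (0% and 2.33%, beside 20.3% and 20.0% of all tested genes). The low Rpl27-ps3 was among those below, at 1.01 and 0.826 against 0.454 and 0.586 CPM. Rpl36a overlapped between the groups, at 332 and 299 against 245 and 304 CPM. The mitochondrial list had 1 above and 16 below (20.8%, close to the 20.0% of all tested genes), with Mrps6 at 67.8 and 59.4 against 50.1 and 45.8 CPM and Mrps30 at 20.2 and 18.9 against 13.0 and 15.99 CPM. Neither list had a gene called over all 4 libraries. With irradiated 1 alone 73 of 88 cytosolic and 38 of 77 mitochondrial ribosomal protein genes were called lower, and 1 and 0 higher, beside 13.9% of all genes lower and 11.9% higher. With irradiated 2 alone 0 of 87 and 1 of 77 (Mrps6) were called lower and 3 of each list higher (Rpl39l, Rps20 and Rps21, and Mrpl2, Mrpl12 and Mrpl41), beside 7.95% lower and 15.9% higher.

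**Figure D4:**
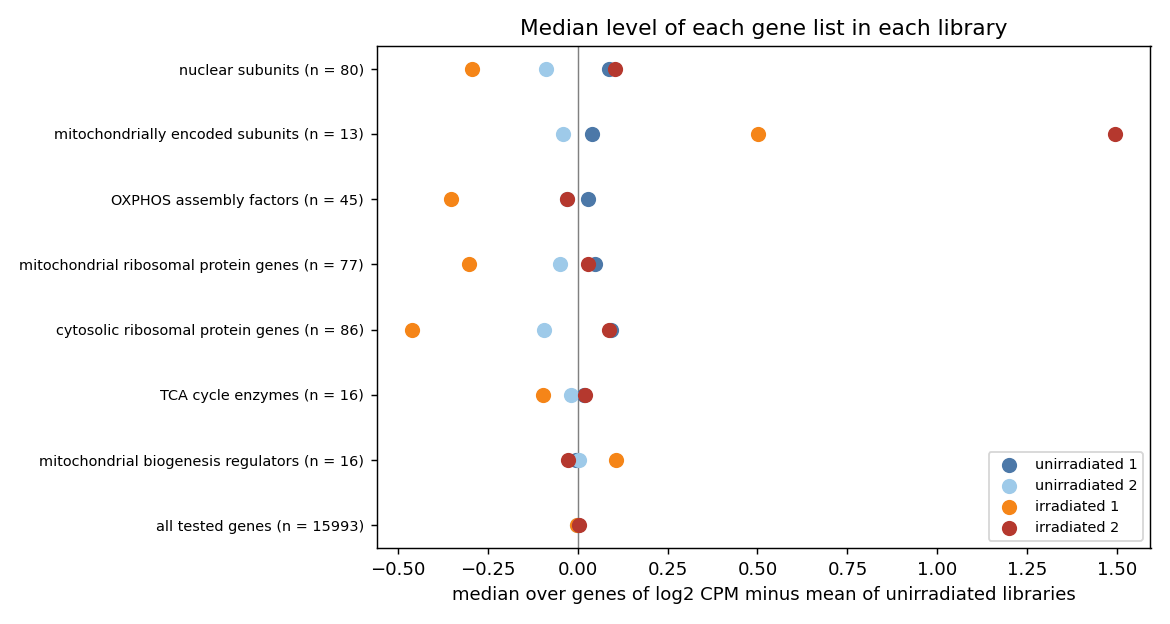
Median over the tested genes of each list of log2 CPM after subtracting the unirradiated mean, 1 point per library. Nuclear subunits, assembly factors and both ribosomal protein lists lie lowest in irradiated 1 (-0.29, -0.35, -0.30 and -0.46), mitochondrially encoded subunits lie above 0 in both irradiated libraries, and all tested genes lie near 0.

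Transcript length moved with the libraries too. The median principal transcript of the tested members was 738.5 bases long and that of all tested genes 2844 bases. The 925 tested protein-coding genes with a principal transcript under 1000 bases stood at 0.068, -0.068, -0.18 and 0.089 in unirradiated 1 and 2 and irradiated 1 and 2, and the 12774 longer ones at -0.0020, 0.0020, 0.0028 and 0.0064. Among members, the 53 under 1000 bases stood at -0.29 in irradiated 1 and the 27 longer ones at -0.32, so the low values there were as large in the longer members. In irradiated 2 they stood at 0.13 and 0.068. The part of transcript length in the order of the libraries was not tested.

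Ndufab1, the acyl carrier protein held in complex I, falls outside the symbol rule and lay below in both irradiated libraries, with 45.9 and 41.2 against 29.1 and 36.9 CPM (log2 fold change -0.40 ± 0.16 SE, adjusted p = 0.545). Ndufa4l2, which the rule leaves out and which is known to rise in low oxygen, had 1.30 and 0.826 against 1.66 and 3.94 CPM (log2 fold change 1.39 ± 0.59 SE, adjusted p = 0.564). Dll1, the sorted gene, had 130.1 and 128.7 CPM in the unirradiated libraries and 145.5 and 80.2 CPM in the irradiated ones.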

How the data were processed

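Poly(A) RNA was sequenced in 4 libraries, 2 unirradiated and 2 irradiated, with a non-directional kit per the labels' protocols. The deposited files hold unnormalized read counts for each gene, beside its name, position and exon length. The build was mm10 and the tools were HTSeq 0.6.1, STAR 2.5 and DESeq2 (version not given), per the submitters' processing notes; the sources used here do not give the annotation release, the strand setting or the treatment of multiply mapped reads. Of the 84 members 78 have the same position and exon length in GENCODE M21.

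The tests used edgeR 4.0.16 (R 4.3.3) on these counts: filterByExpr (minimum count 10, minimum total 15), TMM scaling, the two-sided quasi-likelihood test and Benjamini-Hochberg adjustment over 15993 genes at 0.05. Standard errors are the fold change over the square root of F. CPM and RPKM are TMM normalized, log2 CPM used a prior count of 2, and the smallest exact permutation p for 2 against 2 is 0.33. Each library left out in turn, other scalings and filters, a replicate block, DESeq2 1.42.0 and limma-voom 3.58.1 were alternatives, and the steps were tested on simulated data.

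The members and lists were chosen with earlier results of these data known. Named are Sdhc and Ndufa4, in each complex the 3 members with the highest mean RPKM and the 3 with the smallest p, paralog sets, catalytic and iron-sulfur subunits, and every member below the filter. The 2 genes with the smallest p of each other list are also named, the macrophage, lymphocyte, endothelial, fibroblast and pericyte, and skeletal muscle markers aside. Ndufb4, Uqcrc1, Ndufs6, Atp5j, Ndufab1, Cyc1, Ndufa4l2, the further regulators and the genes named as called with 1 irradiated library were added after their values were seen. Protein sequences were not used here.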

Additional observations from a re-analysis of the deposited data

How the results depend on the processing

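Over the other scalings and filters, DESeq2, limma-voom, the replicate block and an adjusted p threshold of 0.1, 0 members were called in either direction, and the medians of the members and of each complex stayed below 0. Over all genes, edgeR called 0 in each direction, but 1338 higher and 105 lower without the filter on low counts, DESeq2 called 425 higher and 53 lower, and the replicate block 2 higher. The deviations of same-numbered libraries had a correlation of -0.099 across genes, and the block changed no call of a member. With 2 libraries per group, this correlation cannot show whether the replicate numbers pair the libraries. Members above in both irradiated libraries numbered 2 with DESeq2 size factors and 0 with the stricter filter (CPM above 1 in 2 libraries). Cox4i1 lay at 0 within its error, with a log2 fold change of -0.0048 by upper-quartile scaling, -0.0035 by library size alone, -0.0020 without the filter, -0.0043 with the block and -0.00098 by limma-voom, which also gave -1.03 for Cox4i2; the cause was not tested.

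Leaving out each library in turn moved most results. Genes called ranged over all genes from 0 to 2713 higher and 0 to 2355 lower, and over members from 0 to 3 higher and 0 to 40 lower; members above ranged from 1 to 34 and below from 8 to 69. The median log2 fold change ranged from -0.32 to 0.086 for members, -0.26 to 0.12 for complex I, -0.27 to -0.022 for complex II, -0.44 to 0.070 for complex III, -0.35 to 0.079 for complex IV and -0.41 to 0.089 for complex V. Single genes that changed sign ranged as follows on the log2 scale, the lower value being without irradiated 2 and the higher without irradiated 1: Atp5b -0.33 to 0.022, Atp5g1 -0.42 to 0.11, Atp5g2 -0.47 to 0.089, Atp5g3 -0.20 to 0.030, Atp5l -0.53 to 0.055, Cox4i1 -0.23 to 0.19, Cox4i2 -6.06 to 2.18, Cox6a1 -0.16 to 0.14, Cox6b1 -0.43 to 0.073, Cox7a2 -0.47 to 0.069, Cox7a2l -0.62 to 0.23, Cox7b -0.56 to 0.084, Ndufa4 -0.59 to 0.015, Ndufs6 -0.37 to 0.20, Ndufv1 -0.20 to 0.13, Sdha -0.20 to 0.026, Sdhb -0.16 to 0.25, Uqcr10 -0.85 to 0.058, Uqcr11 -0.50 to 0.081, Uqcrc2 -0.54 to 0.034, Uqcrfs1 -0.42 to 0.027, Uqcrh -0.46 to 0.098. Others changed sign with an unirradiated library left out: Atp5j -0.088 to 0.041, Ndufa2 -0.13 to 0.25, Ndufc2 -0.15 to 0.11, Uqcrb -0.19 to 0.0021. Members under 1 CPM rest on few reads at this depth.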
